A study of Homo sapiens with 6 samples.

Results

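The RFX factors, FOXJ1 and the regulators of multiciliation are transcription regulators, some of which switch on the genes of cilia. The 10 genes described here are RFX1, RFX2, RFX3, RFX5, RFX7, RFXAP, RFXANK, FOXJ1, TP73 and MCIDAS, of 63140 genes in the deposited count table. They were selected by name, with the fold changes between these groups already known, so the values that chose them are the miR-34a over control changes given here. Calls on them are a description from the fit over all genes and no independent evidence about the set. All 10 passed the filter on low counts and were tested, FOXJ1 only through its miR-34a libraries.

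The cells were HEK293T, an established line from human embryonic kidney that carries the SV40 large T antigen. The control group was transfected with the AllStars negative control (Qiagen) and the other group with a miR-34a duplex, a synthetic double-stranded form of that microRNA. RNA was collected after 18 h and sequenced in 3 libraries per group, which the series describes as biological replicates. The line is a dividing culture of 1 origin and not a ciliated epithelium, and RNA levels do not show protein or cilia.

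RFX proteins bind DNA at the X-box, a near-palindromic element found in promoters of ciliary genes. RFX2 and RFX3 are best known for ciliogenesis, while RFX5, RFXAP and RFXANK form a complex that binds the promoters of MHC class II genes. FOXJ1 is the forkhead factor that drives motile cilia. MCIDAS (multicilin), a protein related to geminin, works with E2F4 or E2F5 and DP1 to start the multiciliated programme, and TP73 acts upstream of FOXJ1 in airway and other multiciliated cells. MicroRNAs of the miR-34 family are themselves active in multiciliated cells, where CCP110, a cap protein of centrioles, is a known target.

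Members differ in their matches to miR-34a, and the sequences that carry this are shown first. The mature miRNA (RefSeq, GRCh38.p14, chr1:9151735-9151756, minus strand) has its seed, bases 2 to 8, in capitals. A matching mRNA holds the reverse complement: the 8mer CACTGCCA, or the letters CACTGCC (7mer-m8), ACTGCCA (7mer-A1) or ACTGCC (6mer). The sites below lie in the 3′ untranslated region (UTR) of the GENCODE 29 transcript with the longest coding sequence, with the seed match in capitals.

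hsa-miR-34a-5p: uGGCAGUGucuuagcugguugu

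MCIDAS 7mer-m8, chr5:55220337-55220343, minus strand: gatgtggtcccccaaaaCACTGCCctg

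TP73 7mer-m8, chr1:3733353-3733359, plus strand: cccactctcagccctgcCACTGCCccg

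TP73 7mer-A1, chr1:3733490-3733496, plus strand: atcctctttgctgatggACTGCCAaaa

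RFX1 7mer-m8, chr19:13962087-13962093, minus strand: caagctcaagaagggggCACTGCCcgg

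RFX3 8mer, chr9:3220533-3220540, minus strand: tttattcccaaatattCACTGCCAtct

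These 5 sites are all the 7mer and 8mer matches in the members. The MCIDAS site begins 23 nt after the stop codon of a 401 nt UTR, and the RFX3 8mer begins 4502 nt into a UTR of 6745 nt. FOXJ1 holds a single 6mer, 51 nt after its stop codon. RFX2, RFX5, RFX7, RFXAP and RFXANK hold none. Thus 4 of 10 members carry a 7mer or 8mer, beside 21% of the 12972 tested genes with a classed 3′ UTR. TP73 and MCIDAS, each with a 7mer-m8, fell, and RFX1 and RFX3 did not. A match is a description of letters and not evidence of binding.

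With miR-34a, 3 of the 10 members rose (RFX5, RFX7 and FOXJ1), 2 fell (TP73 and MCIDAS) and 5 did not pass. Without FOXJ1, which was tested only through its miR-34a libraries, 2 of 9 rose and 2 fell. Over all 17427 tested genes, 5.38% were called higher and 6.7% lower (edgeR quasi-likelihood test, adjusted p under 0.05 over all tested genes). The CPM values of the groups, counts scaled to the normalised library size, did not overlap for 7 members, 5 of them higher and 2 lower. Such separation was seen for 13.1% of all tested genes upward and 14.2% downward. Apart from FOXJ1, the changes of the members were small, between -0.61 and 0.29 on the log2 scale. All 5 calls were fragile, and each was lost in at least 1 alternative fit. With DESeq2, 1 member was higher and 1 lower.

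**Figure D1:**
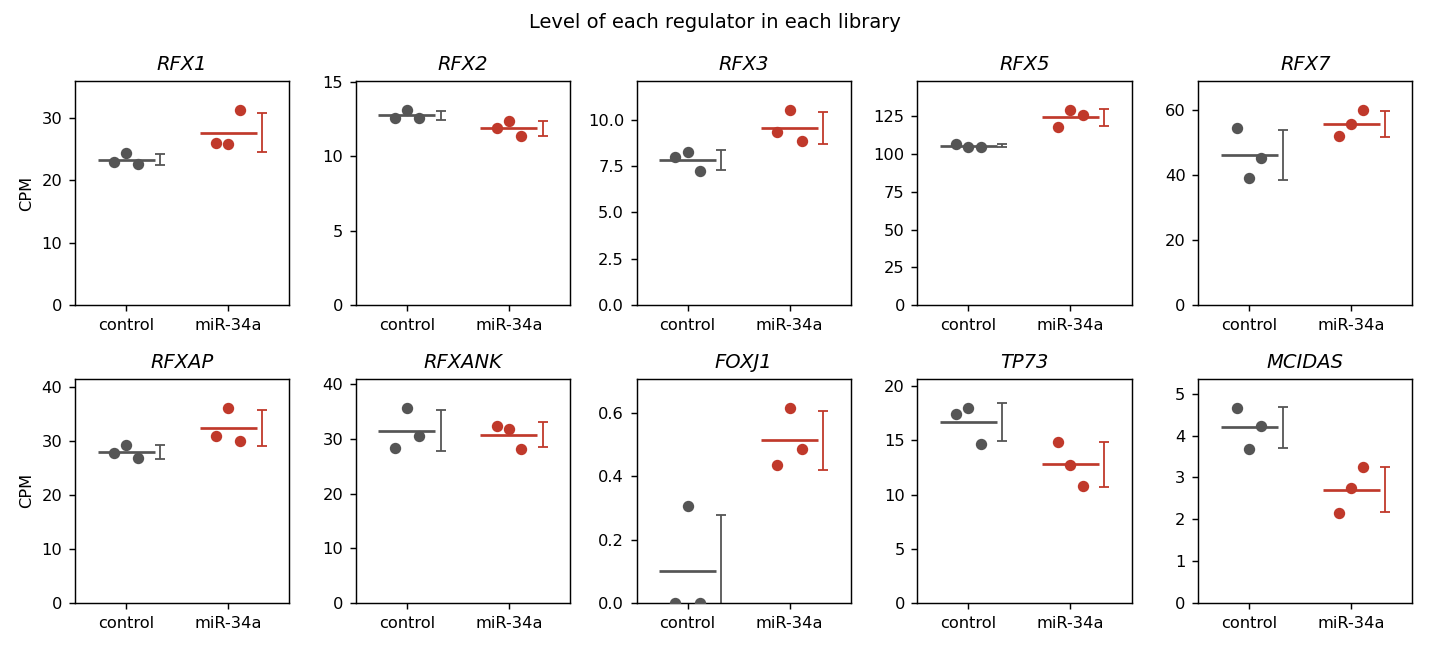
CPM of the 10 members in each of the 6 libraries (points), with the mean (line) and SD (bar, cut at 0 for FOXJ1) of 3 libraries per group, each panel on its own linear axis from 0. FOXJ1 lies at 0.437 to 0.616 CPM with miR-34a against 0 to 0.305 in the control, and MCIDAS at 2.15 to 3.24 against 3.69 to 4.66.

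FOXJ1, the driver of motile cilia, had few counts in both groups, and more with miR-34a. Its raw counts were 0, 10 and 0 in control libraries 1, 2 and 3, and 11, 18 and 18 in the miR-34a libraries. This is 0, 0.305 and 0 CPM against 0.437, 0.616 and 0.487 CPM, a mean of 0.102 ± 0.176 against 0.513 ± 0.0926 (SD, n = 3). The groups did not overlap, and the fitted log2 fold change was 2.18 ± 0.69 (SE, adjusted p = 0.040). FOXJ1 passed the count filter only through its miR-34a libraries, so this separation and p-value are no independent support for a rise. The fitted value was 1.58 on leaving out control replicate 3 and 6.94 on leaving out control replicate 2, when both remaining controls were at 0 and the fold is no bound. FOXJ1 was not called on leaving out control replicate 1 (adjusted p = 0.089) or 3 (0.19), or on leaving out miR-34a replicate 1 (0.066), 2 (0.13) or 3 (0.065), or when libraries were scaled by size only (0.056). FOXJ1 shares 0.3% of its exonic length with RNF157-AS1 on the opposite strand, which stood at 0.886 CPM in the control and 0.669 with miR-34a.

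MCIDAS fell. It stood at 4.66, 3.69 and 4.23 CPM across the controls and 2.15, 2.74 and 3.24 CPM in the miR-34a libraries. No miR-34a library reached the lowest control. The fitted log2 change was -0.61 ± 0.19 (SE), with adjusted p = 0.034. The raw counts were 114, 121 and 136 against 54, 80 and 120. DESeq2 did not call it (adjusted p = 0.060), nor did the fits leaving out control replicate 1 (0.080) or 3 (0.099), or in turn miR-34a replicate 1 (0.14) or 2 (0.084).

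TP73, a p53 relative that acts upstream in multiciliated cells, fell as well, with a smaller change. It measured 17.4, 18.0 and 14.7 CPM across the controls and 14.9, 12.7 and 10.8 CPM with miR-34a. The groups overlapped, since control replicate 3 lay just under miR-34a replicate 1. The fitted log2 change was -0.39 ± 0.12 (SE), with adjusted p = 0.026, lost on leaving out control replicate 2 (adjusted p = 0.16), or in turn miR-34a replicate 2 (0.072) or 3 (0.16). TP73-AS1, which shares 9.4% of the exonic length of TP73 on the opposite strand, is listed at 0 counts in all libraries. The table does not separate the long and short isoforms of TP73, which differ in function.

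RFX2 and RFX3, the ciliogenic RFX factors, did not pass. RFX2 stood at 12.6, 13.1 and 12.6 CPM across the controls and 11.9, 12.4 and 11.4 CPM with miR-34a. Its groups were separate by a small margin, by a log2 change of -0.10 ± 0.10 (SE), with adjusted p = 0.61. RFX3 stood at 8.01, 8.23 and 7.21 CPM against 9.34, 10.5 and 8.84 CPM, each miR-34a library above each control. Its log2 fold change was 0.29 ± 0.12 (adjusted p = 0.14). Its 3′ UTR holds the 8mer shown above.

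RFX1, a broadly expressed RFX factor, had a like difference. It measured 23.0, 24.3 and 22.6 CPM across the controls and 25.9, 25.8 and 31.2 CPM with miR-34a. The groups did not overlap and miR-34a replicate 3 was the highest. The fitted log2 change was 0.25 ± 0.09 (SE), with adjusted p = 0.076, and no alternative fit brought it past the threshold.

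RFX7, a family member linked to p53 signalling, rose at the edge of the threshold. It stood at 54.3, 39.1 and 45.2 CPM across the controls and 51.9, 55.6 and 59.9 CPM with miR-34a. Control replicate 1 lay inside the miR-34a range. The fitted log2 change was 0.28 ± 0.09 (SE), with adjusted p = 0.049. Without control replicate 2 it was 0.17 (adjusted p = 0.32), and the call was also lost with DESeq2 (0.053) and on leaving out control replicate 3 (0.15) or miR-34a replicate 2 (0.11) or 3 (0.17).

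Of the 3 subunits of the RFX complex, only RFX5 was called. RFX5, the DNA-binding subunit, stood at 107, 105 and 105 CPM across the controls and 118, 129 and 126 CPM with miR-34a, with tight and separate groups. It shares 2.0% of its exonic length with RFX5-AS1 on the opposite strand, at 1.30 CPM in the control. The fitted log2 change was 0.24 ± 0.07 (SE), with adjusted p = 0.018, lost on leaving out control replicate 3 (adjusted p = 0.079), or in turn miR-34a replicate 2 (0.12) or 3 (0.053). RFXAP, a partner subunit, stood at 27.7, 29.3 and 26.8 CPM against 31.0, 36.1 and 30 CPM. Its groups were also separate, but it did not pass (0.21 ± 0.09, adjusted p = 0.12). RFXANK, the ankyrin repeat subunit, stood at 28.3, 35.7 and 30.6 CPM against 32.4, 31.8 and 28.2 CPM. The groups overlapped, with a log2 fold change of -0.04 ± 0.09 (adjusted p = 0.84). RFXANK shares 14.5% of its exonic length with BORCS8 and 8.8% with NR2C2AP, both on the opposite strand and at 12.6 and 17.6 CPM in the control, so its level is uncertain. Whether the change of RFX5 differs from that of RFXANK was not tested.

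Per kb of exonic length, the members covered a wide range of levels. RFX5 was the highest, at 23.0 CPM per kb in the control (range 22.8 to 23.3, n = 3). RFXANK (12.6, a level uncertain for the exons it shares) and RFXAP (12.1) followed and overlapped each other. RFX7 (4.36) and RFX1 (4.27) also overlapped, as did TP73 (2.47, range 2.17 to 2.67) and MCIDAS (2.0, range 1.76 to 2.23). RFX2 stood at 1.40, RFX3 at 0.700 and FOXJ1 at 0.0385 CPM per kb, each apart from its neighbours. With miR-34a the order of the means changed in 2 places: RFXAP (14.0) lay above RFXANK (12.3), and RFX2 (1.31) just above MCIDAS (1.30). The range of MCIDAS (1.03 to 1.55) then held that of RFX2 (1.25 to 1.36) and no longer met that of TP73 (1.6 to 2.20). RFX7 (5.27) and RFX1 (5.05) still overlapped. FOXJ1 remained the lowest, at 0.194 CPM per kb.

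**Figure D2:**
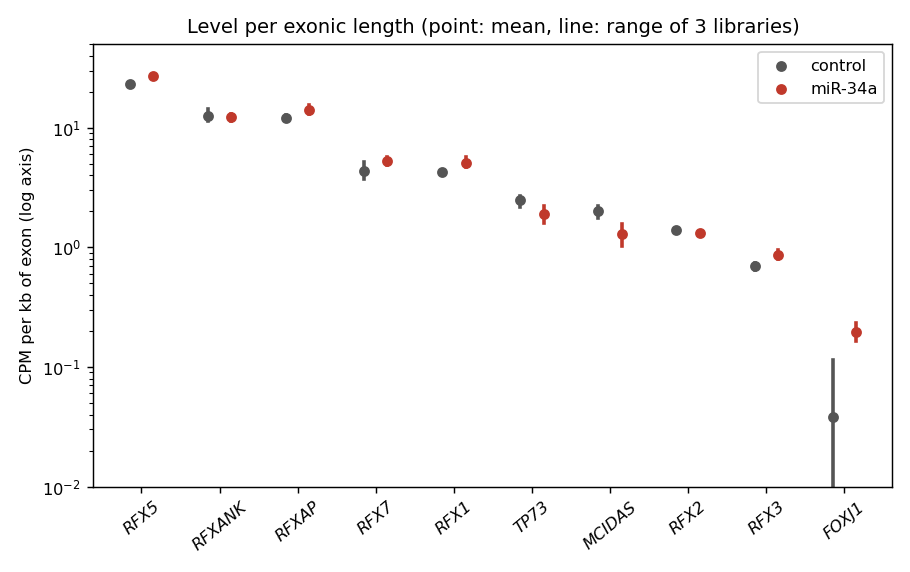
CPM per kb of exonic length (log axis) for the 10 members, as the mean (point) and range (line) of 3 libraries per group. RFX5 lies at 23.0 in the control and 27.2 with miR-34a, and FOXJ1 at 0.0385 and 0.194. The control line of FOXJ1 runs down to 0 and is cut at the axis.

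By the distance between log2 CPM profiles over the 6 libraries, the genes most like RFX5, the member with the lowest adjusted p, were COQ6, GNE and USP45. Their root mean square distances were 0.013, 0.023 and 0.024 on the log2 scale, against a median of 0.163 over 11182 genes with at least 5 CPM. Their log2 fold changes were 0.25, 0.26 and 0.24. The profiles share the same 6 libraries.

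In a list of other RFX factors and genes tied to multiciliation, 4 of 5 calls were kept in every alternative fit. Of 15 listed, 9 were tested, 4 fell, 1 rose and 4 did not pass, beside 6.7% of all tested genes called lower and 5.38% higher. E2F5, a partner of MCIDAS, fell from 35.2, 31.2 and 29.3 CPM to 17.1, 14.4 and 14.0 CPM, a log2 change of -1.08 ± 0.10 (SE), with adjusted p = 1.6e-08. E2F5 shares 16.3% of its exonic length with RBIS on the opposite strand, at 30.9 CPM in the control, so its value is uncertain. The 3′ UTR of E2F5 holds an 8mer match to miR-34a, that of MYB a 7mer-m8 and that of GMNN a 6mer, and that of FOXN4 holds none. Over the 12972 tested genes with a classed 3′ UTR, 21% hold a 7mer or 8mer, and a 6mer is the strongest match in 10.1%. Here too a match is no evidence of binding. MYB, which acts early in multiciliated precursors, fell from 6.71, 5.73 and 5.16 CPM to 2.90, 2.91 and 3.11 CPM (-0.97 ± 0.16, adjusted p = 0.00015). GMNN (geminin), which binds and restrains MCIDAS, fell from 163, 165 and 180 CPM to 124, 106 and 97.8 CPM (-0.63 ± 0.08, adjusted p = 2.7e-06). FOXN4, a forkhead factor of multiciliated cells, fell from 8.34, 7.68 and 6.68 CPM to 4.05, 5.65 and 5.70 CPM (-0.55 ± 0.15, adjusted p = 0.017). The FOXN4 call was lost on leaving out control replicate 2 (adjusted p = 0.073), or in turn miR-34a replicate 1 (0.095). In each of these 4 genes every miR-34a library lay below every control library.

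CCP110, the centriole cap, rose. It stood at 93.9, 84.1 and 89.2 CPM across the controls and 132, 129 and 134 CPM with miR-34a. The fitted log2 change was 0.57 ± 0.07 (SE), with adjusted p = 1.8e-06, and the 3′ UTR searched held no match to miR-34a. E2F4, TFDP1 (DP1), CCNO and RFX6 did not pass, with log2 fold changes of -0.11, 0.08, -0.13 and -0.19. Their searched 3′ UTRs held no match either. The list holds 6 genes under the filter. GMNC, a geminin relative upstream of MCIDAS, had 4 to 12 counts a library, CDC20B 3 to 13, RFX4 0 to 6, DEUP1 0 to 3 and TP63 0 to 2, and RFX8 was at 0 in all.

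**Figure D3:**
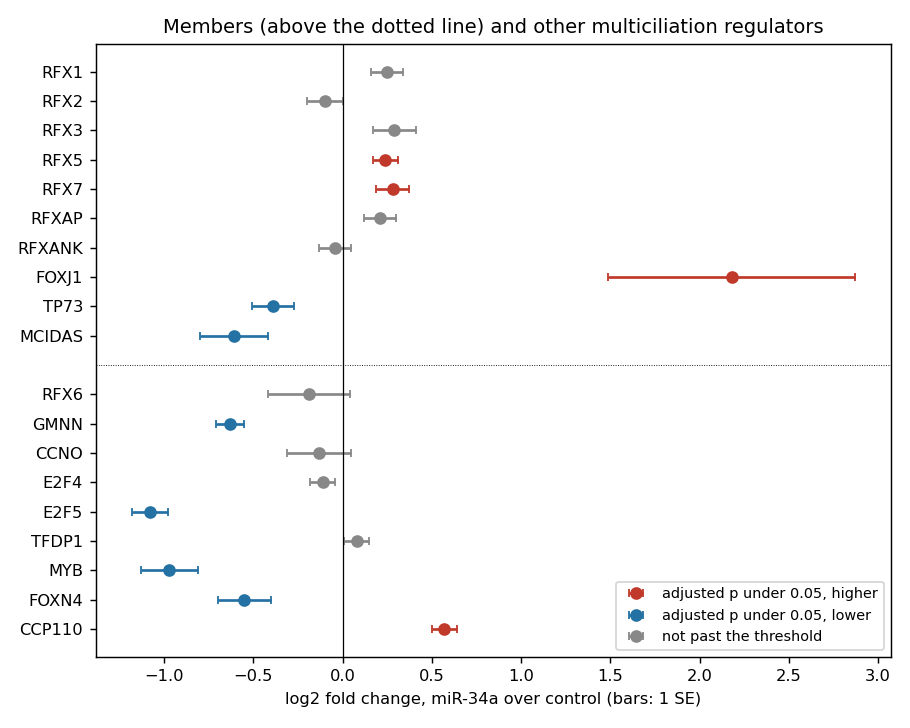
Log2 fold change, miR-34a over control, with 1 SE, of the 10 members (above the dotted line) and 9 other tested genes. The 9 belong to the list of other RFX factors and genes tied to multiciliation. Colours give the call of the fit over all genes. FOXJ1 stands alone on the right at 2.18 ± 0.69, and E2F5, MYB, GMNN, MCIDAS, FOXN4 and TP73 lie on the left.

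Genes of the cilium, many of them known targets of RFX factors or FOXJ1, were mostly higher with miR-34a. In a list of 66 primary cilium genes, all tested, 37 rose, 1 fell and 28 did not pass, with a median log2 fold change of 0.30 against -0.004 over all tested genes. In a list of 82 motile cilium genes, 70 were tested, 42 rose, 1 fell and 27 did not pass, with a median of 0.72. The called share was 56.1% and 60.0%, beside 5.38% of all tested genes. The count filter was reached in all 3 controls by every tested primary cilium gene and by 56 of the 70 motile ones, of which 35 rose and 1 fell. The lists were written with some of these genes known to have risen. Without OSCP1, CCDC113, NEK10, MAPK15, IFT88 and TCTN2, 35 of 64 and 38 of 66 rose, with medians of 0.29 and 0.70.

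Among primary cilium genes, the lowest adjusted p-values upward were in TCTN2, IFT88, TCTN1 and DYNC2LI1. TCTN1, a transition zone protein, rose from 31.0, 35.8 and 34.9 CPM to 59.9, 65.3 and 62.3 CPM (log2 fold change 0.88 ± 0.08 SE, adjusted p = 1e-08). DYNC2LI1, a light intermediate chain of the dynein of intraflagellar transport, rose from 31.6, 34.5 and 34.2 CPM to 58.0, 58.7 and 57.0 CPM (0.79 ± 0.07, adjusted p = 2.8e-08). TCTN2 and IFT88 had log2 fold changes of 1.09 and 1.10. KIF17, a ciliary kinesin, was the 1 gene of this list that fell, from 16.8, 16.5 and 15.2 CPM to 11.9, 9.59 and 11.1 CPM (-0.57 ± 0.11, adjusted p = 0.00051).

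Among motile cilium genes the lowest were in OSCP1, CCDC113, MAPK15 and WDR63, with DNAL1, a dynein light chain (log2 fold change 0.93), at the same adjusted p as WDR63 when rounded. WDR63 (DNAI3), an intermediate chain of inner dynein arms, rose from 3.03, 3.35 and 5.10 CPM to 11, 15.5 and 12.8 CPM (log2 fold change 1.76 ± 0.16 SE, adjusted p = 2.7e-08). The log2 changes of OSCP1, CCDC113 and MAPK15 were 1.67, 1.32 and 1.19. C21orf59 (CFAP298), a factor of dynein arm assembly, fell, with a log2 fold change of -0.31 ± 0.09 (adjusted p = 0.022). Its call was lost on leaving out control replicate 3 (adjusted p = 0.098), or in turn miR-34a replicate 1 (0.11) or 3 (0.053). C21orf59 shares 23.9% of its exonic length with CFAP298-TCP10L on the same strand, at 1.51 CPM in the control, so its level is uncertain.

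**Figure D4:**
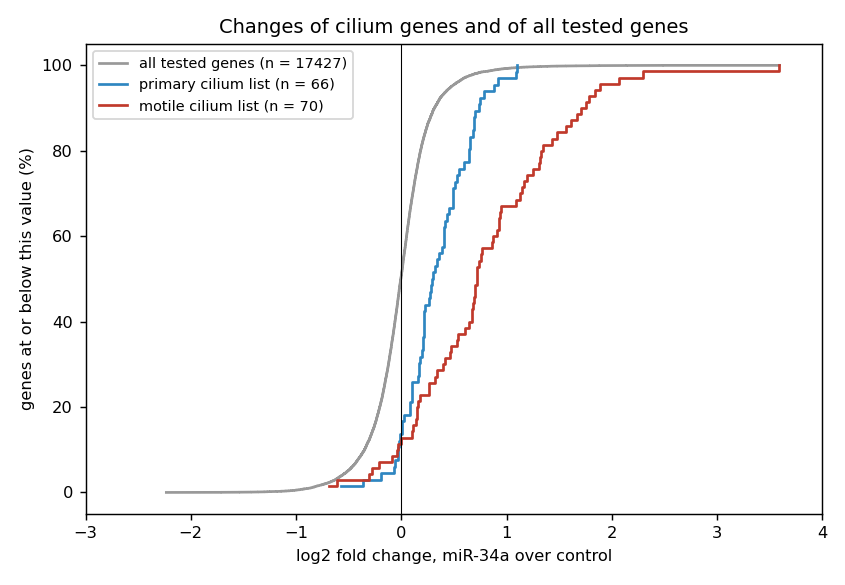
Cumulative share of genes (%) by log2 fold change, miR-34a over control, for the primary cilium list (66 genes), the motile cilium list (70 tested genes) and all 17427 tested genes. Over most of the range both list curves lie to the right of the curve of all genes, the motile list furthest, with medians of 0.30, 0.72 and -0.004.

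Markers of a finished multiciliated cell were low or absent. Of 11 listed, SNTN, C20orf85 and TEKT1 were at 0 counts in all 6 libraries. The summed level of the 11 ranged from 5.68 to 7.71 CPM in the control and from 8.14 to 11.4 CPM with miR-34a. RSPH1 and DNAI1, which the motile list also holds, rose, with log2 fold changes of 1.61 and 1.43 (adjusted p = 0.0039 and 0.027), and 5 others did not pass, beside 5.38% of all tested genes called higher. RSPH1 had 4, 32 and 16 counts in the controls and DNAI1 5, 11 and 9, so neither reached the count filter in all 3 controls and both needed their miR-34a libraries to be tested. In bulk RNA, more cells with a transcript and more transcript per cell cannot be told apart. Genes known from HEK293T (VIM, KRT8, KRT18, PAX2, NEFM, NEFL) summed to 482 to 544 CPM in the control and 431 to 468 CPM with miR-34a, with NEFM and NEFL called lower. Their part in the results above was not tested. In every library, 9 listed markers of leukocytes, endothelium, hepatocytes and airway cells had under 10 counts, and CD3E, SCGB1A1 and MUC5AC were at 0 in all 6.

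The X-box, the element that RFX factors bind, was searched in RefSeq promoters of GRCh38.p14, 300 bases from 250 before to 50 after each start. A full X-box was taken as the arm GTTNCC followed after a gap of 1 to 3 bases by its mirror image GGNAAC, which reads the same on both strands. Of 27305 genes in the table, 0.875% held one. The following matches lie in the promoter windows of cilium genes that rose, shown 5′ to 3′ on the gene's strand with the X-box in capitals.

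DNAH1, a dynein heavy chain, chr3:52316214-52316227, plus strand: aggctgatGTTGCCATGGCAACccggatag

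TMEM107, a transition zone protein, chr17:8176412-8176425, minus strand: cgtacacgGTTACCAAGGCAACtgggcggt

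ARL6, a small GTPase that recruits the BBSome, chr3:97764734-97764747, plus strand: aagctcctGTTGCCAAGGGAACggtgcctg

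SPAG16, a protein of the axoneme's central pair, chr2:213284280-213284293, plus strand: gcaacatcGTTGCCACGGTAACtgggaggc

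DNAH1, TMEM107, ARL6 and SPAG16 had log2 fold changes of 0.54, 0.65, 0.41 and 0.40. Among all 11885 tested genes with a promoter in the table, 126 (1.06%) held a full X-box. The share was 3.13% among the 767 genes that rose (24 genes), 0.970% among the 10211 not called and 0.331% among the 907 that fell (3 genes). Read the other way, 19.0% of the 126 rose and 2.38% fell, with a median log2 fold change of 0.096, while 6.45% of all tested genes with a promoter rose and 7.63% fell. Outside both cilium lists, 18 of 116 X-box genes rose (15.5%) and 3 fell. A shorter form, the letters GTTGCCAT on either strand, was held by 3.26% of the genes that rose and 1.21% of those that fell. It was held by 1.58% of those not called and 1.66% of all tested genes with a promoter. These shares describe letters across genes, which are not independent replicates, and say nothing of which factor was bound.

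**Figure D5:**
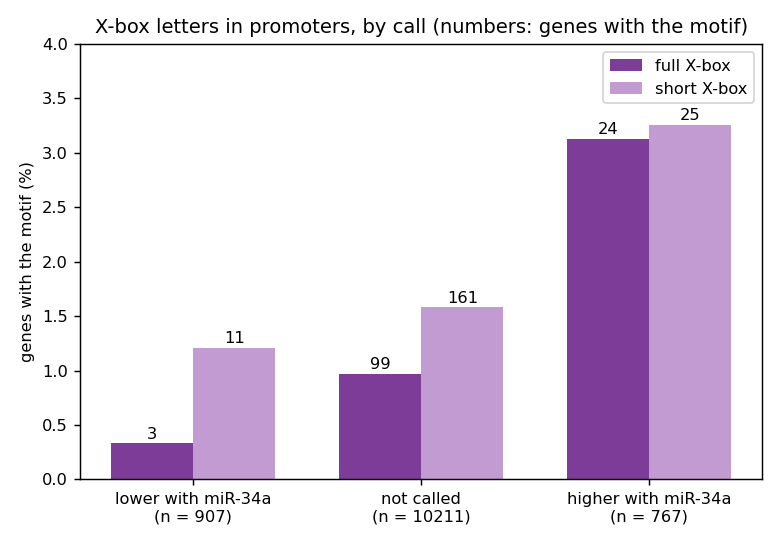
Share of genes (%) whose promoter holds the full X-box or the short form GTTGCCAT, for genes that were lower, not called or higher with miR-34a, with the number of genes above each bar. The full X-box stands at 0.331, 0.970 and 3.13%.

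Outside the cilium lists, PIH1D2 and CLBA1 had the lowest adjusted p-values among X-box genes that rose, and were named after their values were seen. PIH1D2, a relative of dynein assembly factors, rose from 3.69 ± 0.085 to 9.17 ± 1.02 CPM (SD, n = 3), and CLBA1 from 11.5 ± 1.84 to 23.1 ± 1.99 CPM. The 3 that fell were MAPRE2, QRICH2 and MORN4, with log2 fold changes of -0.24, -0.47 and -0.33. In the cilium lists, 10 tested genes held a full X-box and 6 of them rose: TCTN1, IFT122, TMEM107, ARL6, SPAG16 and DNAH1. No full or short X-box was found in the 16 promoter windows of the 8 members in the table. RFX2 and FOXJ1 had no entry.

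Genes tied to the RFX complex had few calls, and no direction is read from counts this small. Of 15 tested genes of MHC class I and II, 2 fell and 13 did not pass, with a median log2 fold change of -0.13 and 6.7% of all tested genes called lower. HLA-B and HLA-C, class I heavy chains, fell from 87.2 ± 8.93 to 71.3 ± 2.94 CPM and from 215 ± 21.4 to 181 ± 9.55 CPM (SD, n = 3). Their log2 fold changes were -0.29 ± 0.08 (adjusted p = 0.011) and -0.25 ± 0.07 (adjusted p = 0.027). How reads that match HLA-B, HLA-C or other class I genes alike were counted is not known. Both calls were lost on leaving out control replicate 2 (adjusted p = 0.092 and 0.18) or miR-34a replicate 2 (0.052 and 0.13), and HLA-C also on leaving out miR-34a replicate 3 (0.082). Levels of class II genes varied. HLA-DQB1, a class II beta chain, stood at 9.91 CPM in the control and 7.93 CPM with miR-34a, HLA-DOA at 5.74 and 5.40 CPM and HLA-DPA1 at 5.03 and 4.84 CPM, and none of these passed the test. HLA-DRA had 2 to 10 counts and CD74 4 to 7 counts a library, under the filter. CIITA, the coactivator that the RFX complex needs at class II promoters, stood at 1.26 and 1.29 CPM in control and miR-34a libraries. CIITA shares 11.6% of its exonic length with DEXI on the opposite strand, at 7.1 CPM in the control, so its level is uncertain. NLRC5, also listed as a partner, stood at 1.05 and 1.34 CPM and did not pass (log2 fold change 0.38, adjusted p = 0.49). The list of partners holds 6 tested genes, of which 2 fell, beside 6.7% of all tested genes called lower. Of the DNA-binding partners, NFYC fell by 0.47 on the log2 scale (adjusted p = 0.00013) and CREB1 by 0.24 (adjusted p = 0.039). The CREB1 call was lost in each fit without 1 library (adjusted p up to 0.17) except that leaving out control replicate 2, and with no filter on low counts (0.057). NFYA and NFYB did not pass.

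Of 15 reported targets of RFX7, 2 rose, 2 fell and 11 did not pass, with a median log2 fold change of 0.02. Over all tested genes 5.38% were called higher and 6.7% lower, so nothing is read from counts this small, and 3 of the 4 calls were lost in some fit. PIK3R3, a regulatory subunit of PI3 kinase, and PNRC1, a nuclear receptor coactivator, had log2 fold changes of 0.43 and 0.35 (adjusted p = 0.00011 and 0.0068). CCNG2, a cyclin of quiescent cells, and the transcription factor MAF had -0.31 and -0.24 (adjusted p = 0.0099 and 0.039). PNRC1 lost its call on leaving out control replicate 2 (adjusted p = 0.061), CCNG2 on leaving out control replicate 3 (0.11) or miR-34a replicate 2 (0.060), and MAF in each fit without 1 library (up to 0.29) except that leaving out control replicate 1, with no filter on low counts (0.056) and with libraries scaled by size only (0.051).

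Library totals ranged from 24728662 to 36650331 counts. Over all tested genes the median change was -0.004 on the log2 scale, and no scaling tried moved it by over 0.1. The p-values weigh the difference between the groups against the spread within groups, for these 6 libraries only.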

How the data were processed

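Total RNA of 3 control and 3 miR-34a libraries was sequenced after a TruSeq RNA v2 preparation, which does not mark strand. The authors deposited raw counts per gene, used here as deposited. The submitters' processing notes name STAR 2.7.11a, featureCounts, Subread 2.0.3, edgeR 3.42.4 and GRCh38. Which annotation was counted, with what strand setting and handling of multi-mapped reads, was not given in the sources used here.

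Counts were tested with edgeR 4.0.16 in R 4.3.3: filterByExpr (minimum count 10, total 15), TMM scaling, the quasi-likelihood test and Benjamini-Hochberg adjustment over 17427 genes at 0.05. CPM uses the TMM-scaled library size. Each SE of an edgeR log2 fold change was derived from the change and the F statistic of its quasi-likelihood test. On simulated data for this comparison (17052 genes), 89 of 100 changes of 1.5-fold and 100 of 100 of 2-fold were recovered, with 5.97% false calls. The changed genes were drawn only above a minimum control level that FOXJ1 does not reach, and smaller changes were not simulated. Alternatives were DESeq2 1.42.0, other scalings and filters, each library left out, and a replicate block. Replicates differed by more than sampling noise. The members and gene lists were chosen with earlier results of these data known. All members were named, and from each list the lowest adjusted p-values in each direction. A marker gene of the lists is not reported here.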

Additional observations from a re-analysis of the deposited data

How the results depend on the processing

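No member reversed a call in any fit run. With DESeq2, 1 member was higher and 1 lower, and FOXJ1 had no adjusted p. When each library was left out in turn, members higher ranged from 0 to 2 and members lower from 0 to 1 by edgeR. None was higher without control replicate 3, miR-34a replicate 2 or miR-34a replicate 3, where 4, 4 and 5 had an unadjusted p under 0.05, and none was lower without miR-34a replicate 2, where 2 did. Over the same fits, all genes higher ranged from 525 (without control replicate 2) to 1287 and lower from 727 (without miR-34a replicate 2) to 1394. Primary cilium genes lower ranged from 1 to 2, motile cilium genes lower from 0 to 1, and genes lower in the other lists from 5 to 12. The full X-box share of genes that fell ranged from 0 to 0.555%, and was 1.21% for the short form. Primary cilium genes higher ranged from 29 to 36 and motile ones from 34 to 40. The causes were not tested. Replicate numbers did not pair the libraries (same-number correlations -0.025, 0.022 and -0.076). With a replicate block, 807 genes were higher and 1023 lower, and members 2 higher and 2 lower, RFX5 being lost (adjusted p = 0.052). The block also ended the calls of HLA-C (0.051), MAF (0.069) and CREB1 (0.071), and of no other gene named from the members and lists by the rule. Counts limit FOXJ1 most, at 0 to 18 a library.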
